A study of Homo sapiens with 6 samples.

Results

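The aldo-keto reductases described here are 9 genes, AKR1A1, AKR1B1, AKR1B10, AKR1C1, AKR1C2, AKR1C3, AKR1C4, AKR1D1 and AKR7A2. They were taken by symbol from a list of family members and joined by gene ID to the counts, and they are 9 of the 18404 genes that the deposited log2 FPKM table lists and of the 60504 genes in the count table. The series measured mRNA in HepG2, a human liver carcinoma line grown as an adherent culture in DMEM. The oridonin group is 3 libraries of cells given 10 µM oridonin, a diterpenoid from Isodon plants, for 48 h. The DMSO group is 3 libraries of cells given 0.1% DMSO, the solvent, for 48 h. The labels do not say how much DMSO the oridonin wells held, and nothing says that the libraries came from separately grown cultures, so the tests measure the spread between these libraries, which may be technical.

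Aldo-keto reductases are cytosolic enzymes that use NADPH to turn the aldehyde and ketone groups of sugars, lipids, steroids, prostaglandins and drugs into alcohols. AKR1A1 and AKR1B1 reduce sugar-derived and short aldehydes, AKR1B10 reduces retinaldehyde and lipid aldehydes, the AKR1C enzymes reduce ketosteroids and prostaglandins, AKR1D1 is the steroid reductase of bile acid synthesis, and AKR7A2 reduces succinic semialdehyde and aflatoxin dialdehyde. In human cells AKR1B10 and the AKR1C genes are well known targets of NRF2, the transcription factor that responds to electrophiles.

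The 4 AKR1C genes lie side by side on chromosome 10, and their near identity decides how firmly each can be read. A stretch of the coding sequences of AKR1C1 and AKR1C2 is shown because it holds 10 of the 19 bases at which their 969 coding bases differ; it covers coding bases 73 to 162, in exons 1 and 2. Capitals mark the bases that differ, and both lines are GENCODE 29 transcript sequence, with an intron between the exons in the genome (hg38, chr10:4963517-4965991 on the plus strand for AKR1C1 and chr10:5001604-5003763 on the minus strand for AKR1C2).
AKR1C1: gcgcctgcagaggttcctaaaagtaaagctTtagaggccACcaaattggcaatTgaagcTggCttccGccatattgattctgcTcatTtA
AKR1C2: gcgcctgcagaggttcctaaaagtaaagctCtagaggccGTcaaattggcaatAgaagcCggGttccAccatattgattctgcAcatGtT
A read that falls where the genes are identical cannot tell them apart, and the read length is not given in the sources used here. AKR1C1 and AKR1C2 were 98.04% identical over their coding sequence, with a longest shared run of 186 bases, and 51.63% of the 50-base windows and 18.85% of the 100-base windows of AKR1C1 also occurred in AKR1C2. AKR1C3 was 91.43% identical to AKR1C1 and shared 14.67% of its 50-base and 2.184% of its 100-base windows, and AKR1C4 was 88.54% identical to AKR1C1. AKR1B10 and AKR1B1, by contrast, were 76.1% identical and shared no 50-base window.

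The members' positions are those of the deposited annotation, on hg38. AKR1C1 (ENSG00000187134) spans chr10:4963253-5107522 on the plus strand, AKR1C2 (ENSG00000151632) chr10:4922564-5135226 on the minus strand, AKR1C3 (ENSG00000196139) chr10:5035354-5107686 on the plus strand and AKR1C4 (ENSG00000198610) chr10:5195462-5218949 on the plus strand. AKR1B1 (ENSG00000085662) lies at chr7:134442350-134459284 on the minus strand, its neighbour AKR1B10 (ENSG00000198074) at chr7:134527592-134541408 on the plus strand and AKR1D1 (ENSG00000122787) at chr7:138002324-138117986 on the plus strand. AKR1A1 (ENSG00000117448) lies at chr1:45550543-45570049 on the plus strand and AKR7A2 (ENSG00000053371) at chr1:19303965-19312146 on the minus strand. The deposited spans of AKR1C1 and AKR1C2 are longer than in GENCODE 29, which gives 4963253 to 4983283 and 4987400 to 5018031, while the other 7 members have the same span in both. The long AKR1C1 span covers 99.77% of AKR1C3 on the same strand, and the long AKR1C2 span covers all of AKR1C3 on the opposite strand. Whether reads were counted by exon or by span, and by strand or not, is not given in the sources used here, and for which gene reads of AKR1C3 were counted was not tested. The values of single AKR1C genes are therefore uncertain, and their sum, which does not depend on how reads were divided among them, is given beside them. The sum still depends on whether reads that match several of these genes were dropped or counted more than once, which is not known.

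**Figure D1:**
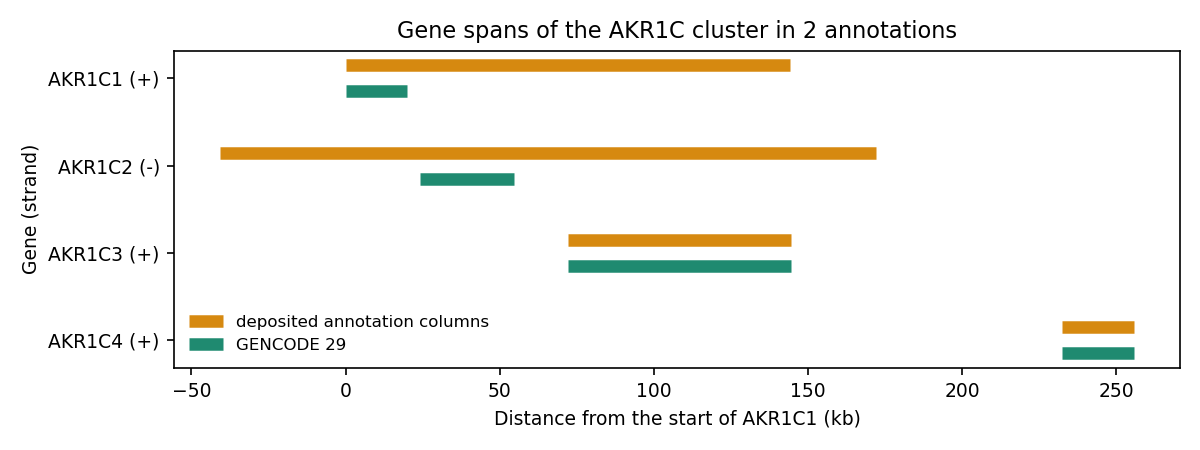
Extent of the 4 AKR1C genes in the deposited annotation and in GENCODE 29, in kilobases from the AKR1C1 start. Each bar is 1 gene in 1 annotation; the deposited bars of AKR1C1 and AKR1C2 run over AKR1C3, and the GENCODE 29 bars do not.

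Library totals ran from 22250202 to 30739574 counts, and 15116 genes passed the filter on low counts. Levels below are CPM, counts scaled to a common library size with edgeR's trimmed mean of M-values (TMM), changes are log2 of oridonin over DMSO with the standard error (SE), and a gene was called at an adjusted p under 0.05 in edgeR's quasi-likelihood test over all 15116 genes. Oridonin changed much of the transcriptome: 41.9% of tested genes were called, 20.6% higher and 21.3% lower. Expression of 10 hepatocyte markers was checked, which does not identify the line, and all were detected and tested. Their summed level was 14874 to 16995 CPM with oridonin and 25115 to 28404 CPM with DMSO, with 1 marker called higher and 6 lower.

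Of the 9 genes 5 were called higher with oridonin, AKR1B10, AKR1C1, AKR1C2, AKR1C3 and AKR1B1, and AKR1A1 was called lower. AKR7A2 and AKR1D1 were tested and not called, and AKR1C4 had too few counts to be tested. Among all tested genes 20.6% were called higher and 21.3% lower. AKR1B10, AKR1C1 and AKR1C3 were called and at least 2-fold higher, as were 3.12% of tested genes. The oridonin and DMSO libraries did not overlap for 6 members, 5 higher and 1 lower with oridonin, a separation that 26.0% of tested genes showed upward and 25.6% downward. AKR1C3 met the filter, which asks for about 10 counts in at least 3 libraries, only through its oridonin libraries, so its place in these counts carries no weight. The median size of change was 0.22 on the log2 scale over all tested genes and 0.38 over called genes. In cultures measured in bulk, more cells that express a gene and more RNA per cell cannot be told apart.

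**Figure D2:**
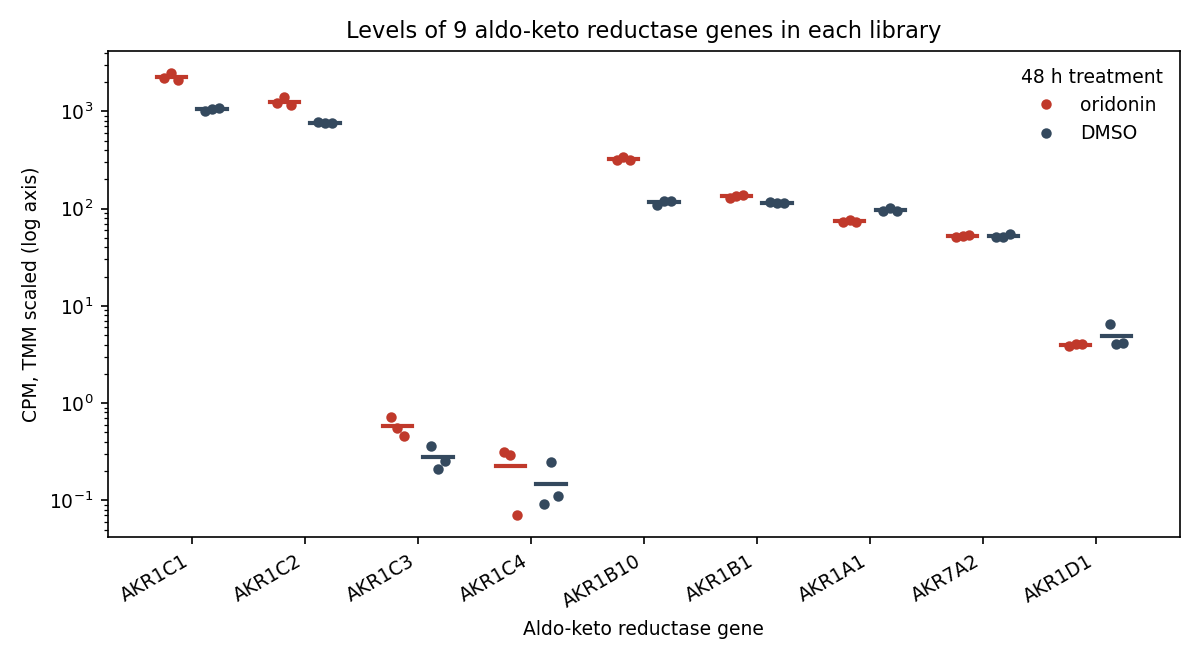
TMM-scaled CPM of the 9 aldo-keto reductases in each library, on a log axis, with oridonin left of DMSO for each gene; points are libraries and lines are group means. The oridonin points lie above all DMSO points for AKR1B10, AKR1C1, AKR1C2, AKR1C3 and AKR1B1, below them for AKR1A1, and overlap them for AKR1C4, AKR7A2 and AKR1D1.

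AKR1B10, the retinaldehyde and lipid aldehyde reductase, had the largest log2 fold change of the 8 members tested. Its level was 314, 340.3 and 314 CPM in the oridonin libraries, against 108, 118 and 121 CPM in the DMSO libraries. The lowest oridonin library lay far above the highest DMSO library. The means were 323 ± 15.2 CPM with oridonin and 116 ± 6.49 CPM with DMSO (SD, n = 3 each), a 2.78-fold difference (log2 1.48 ± 0.05 SE, edgeR adjusted p = 5.69e-12). Only 1.50% of tested genes had a higher log2 fold change. AKR1B10 is a gene of normal gut epithelium. Of 13 gut epithelium markers 9 were tested, 7 were called higher and none lower, beside 20.6% of all tested genes called higher. The markers were low, with a summed level over all 13 of 14.2 to 22.9 CPM with oridonin, against 2.10 to 8.04 CPM with DMSO. At such levels a marker can meet the filter on low counts only through its oridonin libraries, so the count called higher carries no weight. The part of the gut epithelium markers in the result was not tested.

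AKR1C1, a 20-alpha-hydroxysteroid dehydrogenase that inactivates progesterone, more than doubled. It stood at 2202, 2488 and 2111 CPM in the oridonin libraries and at 999, 1065 and 1070.3 CPM in the DMSO libraries. All oridonin libraries were higher than all DMSO libraries, with oridonin replicate 2 above the other oridonin libraries. The means were 2267 ± 197 CPM with oridonin and 1045 ± 39.9 CPM with DMSO (SD, n = 3 each), a change of log2 1.12 ± 0.06 SE (edgeR adjusted p = 4.25e-10). This rests on 59552 to 76650 counts per oridonin library and 21922 to 30331 per DMSO library, so counting error is small beside the spread of the libraries.

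AKR1C2, a 3-alpha-hydroxysteroid dehydrogenase that inactivates dihydrotestosterone, rose by less. It stood at 1209, 1389 and 1173 CPM in the oridonin libraries, against 768, 767 and 760 CPM in the DMSO libraries. The DMSO libraries were nearly level with each other and lay below all oridonin libraries. The means were 1257 ± 116 CPM with oridonin and 765 ± 4.58 CPM with DMSO (SD, n = 3 each), a change of log2 0.72 ± 0.06 SE (edgeR adjusted p = 3.66e-08).

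The sum of AKR1C1 and AKR1C2 does not depend on how reads were divided between them, though it does depend on whether shared reads were dropped or counted more than once. Together they stood at 3411, 3877 and 3284 CPM in the oridonin libraries and at 1767, 1832 and 1830.1 CPM in the DMSO libraries. The mean of the sum was 3524 ± 312 CPM with oridonin and 1810 ± 36.8 CPM with DMSO (SD, n = 3 each), a ratio of 1.95, and adding AKR1C3 and AKR1C4 left the ratio at 1.95. Within the pair AKR1C1 took 64.5%, 64.2% and 64.3% of the counts in the oridonin libraries, against 56.5%, 58.2% and 58.5% in the DMSO libraries, so the balance of counts moved toward AKR1C1 in every oridonin library.

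AKR1C3, the 17-beta-hydroxysteroid dehydrogenase and prostaglandin F synthase, had few counts. It had 23, 17 and 13 counts in the oridonin libraries and 8, 6 and 7 counts in the DMSO libraries, or 0.578 ± 0.133 CPM with oridonin and 0.277 ± 0.0791 CPM with DMSO (SD, n = 3 each). Every oridonin library exceeded every DMSO library, by few counts. AKR1C3 met the filter on low counts only through its oridonin libraries, so its call carries no weight. The change was log2 1.09 ± 0.38 SE (edgeR adjusted p = 0.0275), and the call was lost without a filter on low counts (adjusted p = 0.0503 in edgeR) and in DESeq2 (adjusted p = 0.107). It was also lost on leaving out oridonin replicate 1, oridonin replicate 2, DMSO replicate 2 or DMSO replicate 3, with log2 changes of 0.90 to 1.30 as each library was left out in turn. AKR1C4, a liver 3-alpha-hydroxysteroid dehydrogenase that acts in bile acid synthesis, had 10, 9 and 2 counts in the oridonin libraries, against 2, 7 and 3 counts in the DMSO libraries. Its groups overlapped, and without the filter its change was log2 0.58 ± 0.64 SE (edgeR adjusted p = 0.575), so no difference was detectable at this depth. Both genes share sequence with AKR1C1 and AKR1C2, whose counts are far above theirs, and how many of these few counts came from the abundant genes was not tested. Reads of AKR1C3 may also have been counted for AKR1C1 or AKR1C2, whose deposited spans cover it, or left out. That was not tested either, so its low counts do not show that AKR1C3 mRNA was scarce.

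AKR1B1, aldose reductase, which turns glucose into sorbitol, rose slightly. It stood at 128, 135 and 136 CPM in the oridonin libraries and at 118, 114 and 113 CPM in the DMSO libraries. The groups did not overlap, though the gap was narrow. The means were 133 ± 4.46 CPM with oridonin and 115 ± 2.64 CPM with DMSO (SD, n = 3 each), a 1.16-fold difference (log2 0.21 ± 0.05 SE, edgeR adjusted p = 0.00194), about the median size of change over all tested genes.

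AKR1A1, aldehyde reductase, which also reduces glucuronate, was the member that fell. It stood at 72.8, 75.9 and 73.0 CPM in the oridonin libraries, against 95.5, 101 and 94.3 CPM in the DMSO libraries. Every oridonin library was lower than every DMSO library. The means were 73.9 ± 1.77 CPM with oridonin and 96.8 ± 3.47 CPM with DMSO (SD, n = 3 each), a change of log2 -0.39 ± 0.05 SE (edgeR adjusted p = 1.05e-05).

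AKR7A2, the succinic semialdehyde and aflatoxin dialdehyde reductase, stood at 50.5, 52.1 and 53.1 CPM with oridonin and at 51.1, 51.6 and 55.0 CPM with DMSO. The groups overlapped throughout, and the change was log2 -0.02 ± 0.06 SE (edgeR adjusted p = 0.820). AKR1D1, the 5-beta-reductase of bile acid synthesis, stood at 3.86, 4.09 and 4.01 CPM with oridonin and at 6.56, 4.04 and 4.13 CPM with DMSO. DMSO replicate 1 stood apart and the other DMSO libraries lay among the oridonin ones. The change was log2 -0.28 ± 0.17 SE (edgeR adjusted p = 0.199), and without DMSO replicate 1 it was -0.04 (edgeR adjusted p = 0.860).

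**Figure D3:**
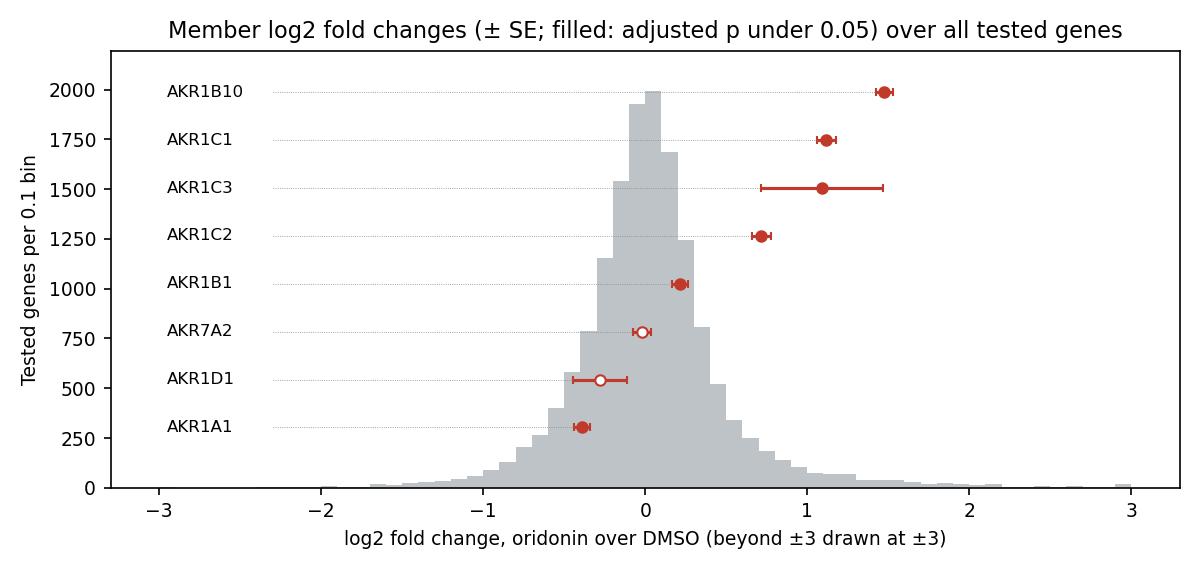
Log2 fold change of oridonin over DMSO (x axis) for each tested aldo-keto reductase in edgeR's fit, with bars of 1 SE and filled points for called genes, over a grey histogram of all 15116 tested genes (y axis, genes per bin). AKR1B10 at 1.48 and AKR1C1 at 1.12 lie in the right tail, AKR1C3 at 1.09 has the widest bar, and AKR1A1 at -0.39 is the called gene left of zero.

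As a family, the 9 genes took 0.422% ± 0.0340 of all counts with oridonin, against 0.213% ± 0.00185 with DMSO (SD, n = 3 each). Their summed level was 4111 ± 330.0 CPM with oridonin and 2195 ± 41.5 CPM with DMSO, a ratio of 1.87, given with no test. Most of that sum is AKR1C1 and AKR1C2. Within the family the share of counts moved toward AKR1C1 (55.1% with oridonin, 47.6% with DMSO) and AKR1B10 (7.86% with oridonin, 5.28% with DMSO). It moved away from AKR1C2 (30.6% with oridonin, 34.9% with DMSO), although AKR1C2 itself rose, and from AKR1A1 (1.80% with oridonin, 4.41% with DMSO).

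Ratios between members within a library do not depend on the library scaling, and 6 pairs were compared. With 3 libraries against 3, the exact permutation test cannot give a 2-sided p under 0.1. The log2 ratio of AKR1B10 to AKR1B1, neighbours on chromosome 7, was 1.27 ± 0.07 with oridonin and 0.01 ± 0.11 with DMSO (SD, n = 3 each), a difference of 1.26 (exact permutation p = 0.1, 0.15 after adjustment over the 6 pairs). The libraries did not overlap, and every oridonin library had a higher ratio than every DMSO library. The ratio of AKR1C1 to AKR1C2 was 0.85 ± 0.01 with oridonin and 0.45 ± 0.06 with DMSO, a difference of 0.40 with no overlap (exact permutation p = 0.1, adjusted 0.15). The ratio of AKR1B10 to AKR1C1 was -2.81 ± 0.06 with oridonin and -3.17 ± 0.03 with DMSO, a difference of 0.36 with no overlap (exact permutation p = 0.1, adjusted 0.15). The ratio of AKR1A1 to AKR7A2, both on chromosome 1, was 0.51 ± 0.05 with oridonin and 0.88 ± 0.10 with DMSO, a difference of -0.37 with no overlap (exact permutation p = 0.1, adjusted 0.15). The ratio of AKR1C3 to AKR1C1 differed by -0.21 (exact permutation p = 0.5, adjusted 0.5) and that of AKR1C4 to AKR1C1 by -0.75 (exact permutation p = 0.3, adjusted 0.36), with overlapping libraries in both. The sizes of these differences depend on the prior count of 2 added before taking logs, since AKR1C3 and AKR1C4 had few counts. From the deposited log2 FPKM they were -0.04 for AKR1C3 and -0.65 for AKR1C4.

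**Figure D4:**
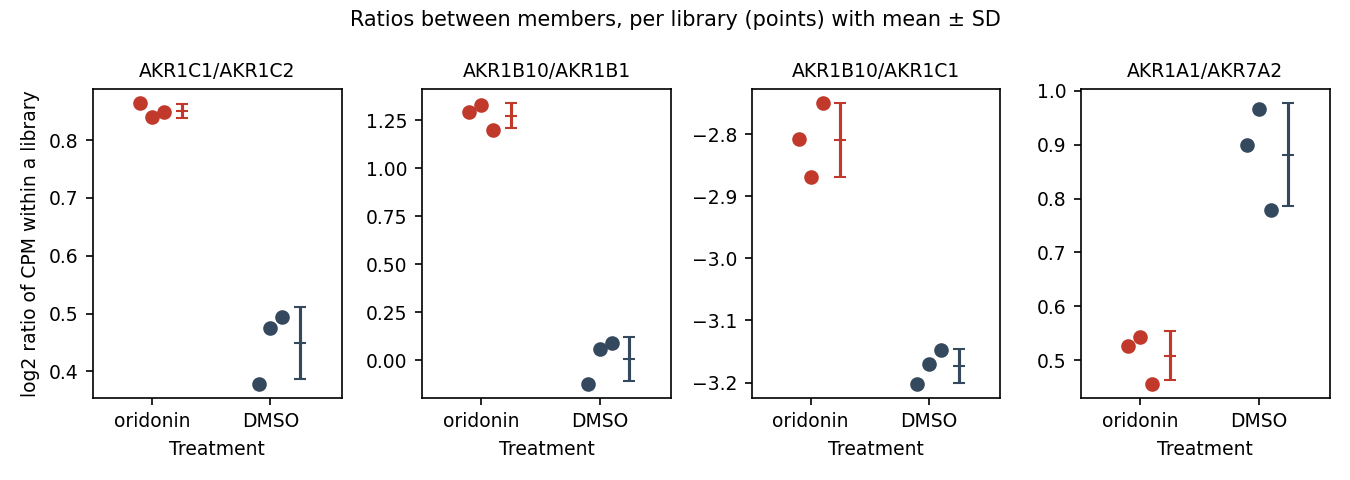
Log2 ratio of CPM within each library for the 4 pairs of aldo-keto reductases whose groups did not overlap, with oridonin left of DMSO; points are libraries, bars are mean ± SD, and each panel has its own scale, which does not start at zero. The oridonin points lie above the DMSO points for AKR1C1/AKR1C2, AKR1B10/AKR1B1 and AKR1B10/AKR1C1 and below them for AKR1A1/AKR7A2.

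To compare one member with another, levels were taken per length, as FPKM from the deposited log2 values. With oridonin the order was AKR1C1 (258 ± 22.5 FPKM), AKR1C2 (188 ± 17.0) and AKR1B10 (186 ± 9.15), then AKR1B1 (36.7 ± 1.47), AKR7A2 (29.3 ± 0.924) and AKR1A1 (23.8 ± 0.597), then AKR1D1 (1.30 ± 0.0421), AKR1C3 (0.128 ± 0.0286) and AKR1C4 (0.118 ± 0.0703) (SD, n = 3 each). The libraries of AKR1C2 and AKR1B10 overlapped, as did those of AKR1C3 and AKR1C4, and the other neighbours in that order did not. With DMSO the order was AKR1C1 (117 ± 5.17 FPKM), AKR1C2 (114 ± 0.454), AKR1B10 (66.0 ± 4.20), AKR1B1 (31.1 ± 0.573), AKR1A1 (30.8 ± 1.06), AKR7A2 (29.3 ± 1.40), AKR1D1 (1.57 ± 0.445), AKR1C4 (0.0773 ± 0.0439) and AKR1C3 (0.0605 ± 0.0169) (SD, n = 3 each). There AKR1C1 overlapped AKR1C2, AKR1B1 overlapped AKR1A1, AKR1A1 overlapped AKR7A2, and AKR1C4 overlapped AKR1C3. The deposited lengths are 8834 bases for AKR1C1 and 6703 for AKR1C2, near the 8765 and 6461 exon bases of GENCODE 29. They are far above the 969 coding bases of these genes, and a shorter length would place both higher in FPKM. The same holds for AKR1C3, which also has 969 coding bases and a deposited length of 4532. The place of AKR1C3 depends on how reads in the overlapping spans were counted, which is not known.

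The sequence of the 250 bases upstream of the RefSeq start (GRCh38.p14) was read for 8 of the 9 members, in 11 windows, and AKR1B10 was not among them. These starts are not those of the deposited annotation. The windows of the AKR1C genes, AKR1A1 and AKR1D1 lie wholly or partly inside the deposited spans given above. A part of these windows is shown for the AKR1C genes because the same motifs recur in it at nearly the same place. Capitals mark a CCAAT box read on the opposite strand and a GTTAAC motif that shares 1 base with it. The lines are chr10:4963328-4963357 (plus strand) for AKR1C1, chr10:5003919-5003948 (minus strand) for AKR1C2, and chr10:5048698-5048727 and chr10:5094318-5094347 (plus strand) for AKR1C3, which has a pair of start sites in RefSeq.
AKR1C1: ctcacatgccATTGGTTAACcagcagacag
AKR1C2: ctcacatgccATTGGTTAACcagcagacag
AKR1C3 first start: tttacatgctATTGGTTAACcattaggcag
AKR1C3 second start: cctacatgccATTGGTTAACcatcagtcag
Searched on both strands, CCAAT occurred in 32.01% of all 35116 RefSeq windows of this length and GTTAAC, which reads the same on both strands, in 2.309%. GTTAAC began 73 bases upstream of the AKR1C1 start and 77 bases upstream of the AKR1C2 start, and neither motif occurred in the AKR1C4 window. The AKR1C1 and AKR1C2 windows were identical at 245 of 246 aligned bases, those of AKR1C1 and AKR1C4 at 62.75%. TGACNNNGC, the core of the antioxidant response element that NRF2 binds, was found on either strand in 10.91% of all windows. Among the members with a window, it occurred only in those of AKR7A2. The motifs were chosen after these windows had been read, and a match or its absence describes these letters in these windows only.

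Of 8 further genes of the aldo-keto reductase family, 4 were tested and 1 was called, lower. KCNAB2, a beta subunit of voltage-gated potassium channels, averaged 54.8 ± 1.81 CPM with oridonin and 68.1 ± 7.27 CPM with DMSO (SD, n = 3 each; log2 -0.31 ± 0.07 SE, edgeR adjusted p = 0.00137). Its relatives KCNAB1 (log2 -0.34, edgeR adjusted p = 0.449) and KCNAB3 (0.07, adjusted p = 0.865) and the AKR7A2 paralog AKR7A3 (-0.17, adjusted p = 0.687) were low and not called. AKR1B15, the closest relative of AKR1B10 with 85.85% of coding columns identical, had 1, 2 and 5 counts in the oridonin libraries and none in the DMSO libraries. Of the 1032 columns 84 are gaps, and 19.8% of the 50-base windows of AKR1B10 also occur in AKR1B15. Its few reads may be those of the abundant AKR1B10, which was not tested. AKR1C8 and AKR1E2 had no count in any library, which at these depths allows up to 0.0976 to 0.135 CPM per library, counting error only. AKR7L, another AKR7A2 relative, had 7, 5 and 5 counts with oridonin, against 12, 8 and 10 counts with DMSO, and was not tested. The pseudogene AKR1C7P, chosen after its values were seen, had 16, 11 and 10 counts with oridonin, against 3, 3 and 4 counts with DMSO. It met the filter on low counts only through its oridonin libraries, so no test is given, and its reads may be shared with the AKR1C genes.

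The genes that work beside these enzymes were described by 10 lists. Their counts are given with the median log2 change of each list, beside a median of 0.01 over all tested genes, of which 20.6% were called higher and 21.3% lower. Each gene named was called in edgeR's fit, and levels are mean ± SD over 3 libraries a group.

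In bile acid synthesis, the pathway of AKR1D1 and AKR1C4, 10 of 14 genes were tested, 3 rose and 2 fell, with a median log2 change of 0.11. BAAT, which conjugates bile acids to taurine and glycine, averaged 2.76 ± 0.348 CPM with oridonin and 1.06 ± 0.230 CPM with DMSO (log2 1.37). HSD17B4, a peroxisomal side-chain enzyme, averaged 108 ± 2.83 CPM with oridonin and 138 ± 4.84 CPM with DMSO (log2 -0.36). Of 19 enzymes of steroid hormones, the substrates of the AKR1C enzymes, 13 were tested, 1 rose and 6 fell (median -0.07). The 6 became 3 without oridonin replicate 1, without DMSO replicate 2 and with total-count scaling, so the share that fell, beside 21.3% of all tested genes, is not stable. The lowest p among those that fell was that of CYP19A1, aromatase, with 4.19 ± 0.440 CPM with oridonin and 7.78 ± 0.385 CPM with DMSO (log2 -0.89), and the gene that rose was HSD17B10, a mitochondrial hydroxysteroid dehydrogenase (log2 0.30).

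In polyol and fructose handling, downstream of AKR1B1, 5 of 6 genes were tested, 1 rose and 2 fell (median 0.09), and 2 rose without oridonin replicate 1 and with total-count scaling. KHK, ketohexokinase, fell to 24.3 ± 0.755 CPM with oridonin, against 42.2 ± 1.18 CPM with DMSO (log2 -0.79). SLC5A3, a myo-inositol transporter, averaged 82.7 ± 10.5 CPM with oridonin and 35.3 ± 2.73 CPM with DMSO (log2 1.23), and its span overlaps that of MRPS6 on the same strand. In the glucuronate and pentitol pathway, which AKR1A1 serves, all 7 genes were tested, 1 rose and 4 fell (median -0.27). RGN, gluconolactonase, averaged 12.5 ± 0.420 CPM with oridonin and 22.0 ± 0.994 CPM with DMSO (log2 -0.82), and UGDH, which makes UDP-glucuronate, averaged 548 ± 28.8 CPM with oridonin and 426 ± 3.44 CPM with DMSO (log2 0.36).

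Of the prostaglandin genes, 7 of 14 were tested, 2 rose and 1 fell (median 0.26), and 2 fell without DMSO replicate 3 and with a replicate block. PTGR1, which reduces 15-ketoprostaglandins and lipid enals, averaged 235 ± 7.62 CPM with oridonin and 53.1 ± 2.52 CPM with DMSO (log2 2.15). PTGDS, a prostaglandin D synthase, had a log2 change of -0.90. Of 9 retinaldehyde reductases and retinol dehydrogenases 7 were tested, 1 rose and 1 fell (median 0.17). The gene that fell was DHRS3, and none fell in 8 of 12 alternatives, among them those without oridonin replicate 1, oridonin replicate 2, DMSO replicate 2 or DMSO replicate 3; 3 rose with total-count scaling and 2 without the filter or with a replicate block. RDH10, which oxidizes retinol, had a log2 change of 0.47, and RPL7, an abundant gene, overlaps it on the opposite strand.

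Aldehyde dehydrogenases oxidize the aldehydes that the aldo-keto reductases reduce. Of 17 such genes 16 were tested, 2 rose and 9 fell (median -0.30). ALDH2, the mitochondrial acetaldehyde dehydrogenase, averaged 153 ± 8.19 CPM with oridonin and 202 ± 4.69 CPM with DMSO (log2 -0.40), and ALDH3A1 averaged 2.49 ± 0.0431 CPM with oridonin and 0.888 ± 0.148 CPM with DMSO (log2 1.47). Of 9 short-chain carbonyl reductases 7 were tested, 3 rose and 2 fell (median 0.01). CBR1, a quinone and prostaglandin reductase, averaged 22.1 ± 0.242 CPM with oridonin and 15.4 ± 0.244 CPM with DMSO (log2 0.52), while DHRS2 averaged 1490.4 ± 8.14 CPM with oridonin and 2298 ± 131 CPM with DMSO (log2 -0.62).

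All 22 NRF2 regulators and targets outside the family were tested, 15 rose and 2 fell (median 0.38). Only 1 fell without oridonin replicate 1, without oridonin replicate 2 and with total-count scaling, and 4 fell with a replicate block. TXNRD1, thioredoxin reductase, averaged 865 ± 21.9 CPM with oridonin and 315 ± 0.306 CPM with DMSO (log2 1.45), and EPHX1, microsomal epoxide hydrolase, had a log2 change of 1.10. The mRNA of NRF2 itself, NFE2L2, averaged 165 ± 15.9 CPM with oridonin and 226 ± 9.68 CPM with DMSO (log2 -0.45). AGPS overlaps NFE2L2 on the opposite strand, averaged 149 CPM with oridonin and 189 CPM with DMSO, and was also called lower (log2 -0.35). Whether its reads were counted for NFE2L2 was not tested. Of 10 genes that supply NADPH, the cofactor of the family, 9 were tested, 3 rose and 4 fell (median -0.16). IDH1, cytosolic isocitrate dehydrogenase, averaged 249 ± 14.3 CPM with oridonin and 399 ± 12.8 CPM with DMSO (log2 -0.68), and TALDO1, transaldolase, averaged 323 ± 7.64 CPM with oridonin and 229 ± 7.09 CPM with DMSO (log2 0.50).

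**Figure D5:**
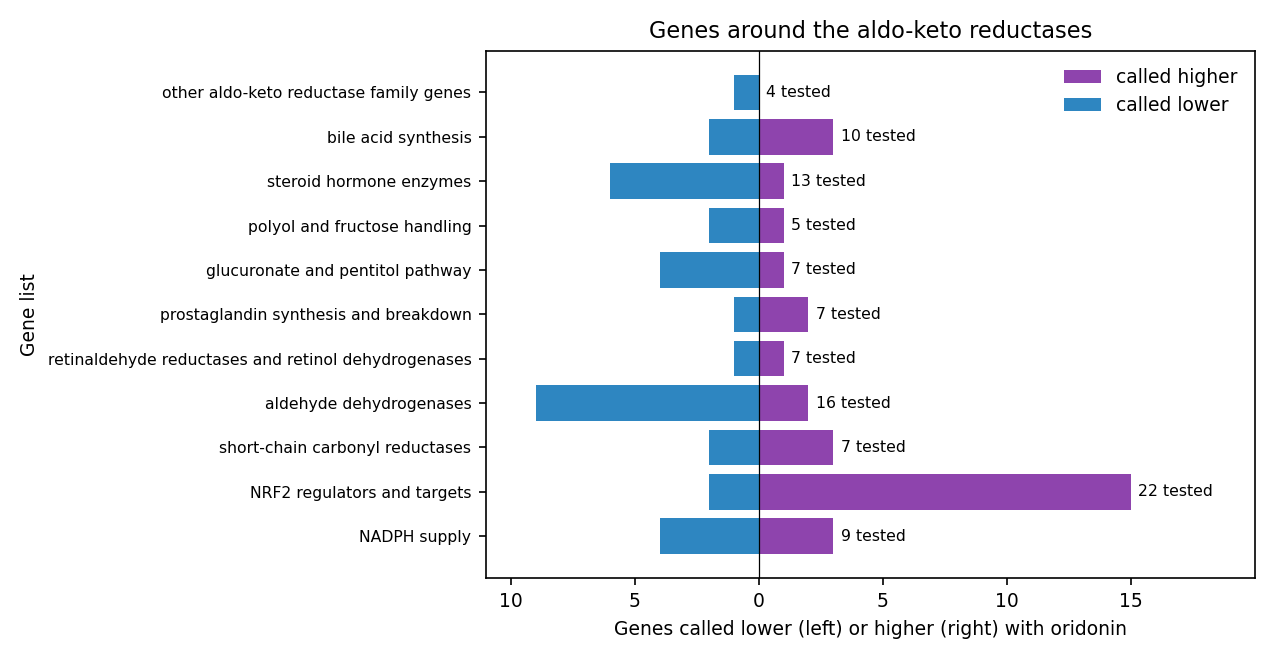
Number of genes called higher (right of zero) and lower (left of zero) with oridonin in each list of genes around the aldo-keto reductases, with the number tested beside each bar. The NRF2 list has 15 higher and 2 lower, and the aldehyde dehydrogenases have 2 higher and 9 lower.

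Genes whose profile over the 6 libraries was nearest to that of a member were found among 9409 genes by the root mean square difference of centred log2 CPM. This is a description of 6 libraries in 2 groups. Nearest to AKR1B10 were GSTA1 (0.0402), a glutathione transferase with close paralogs, CYP4F11 (0.0554), a fatty acid hydroxylase, and TXNRD1 (0.0555). Nearest to AKR1C1 were EPHX1 (0.0739), EGFR-AS1 (0.0746) and PLK2 (0.0808), a polo-like kinase; EGFR-AS1 is antisense to EGFR, so its reads may be those of EGFR. Nearest to AKR1D1 were ZNF431 (0.120), POLE2 (0.135) and ZNF747 (0.141), which like AKR1D1 were highest in DMSO replicate 1.

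Markers of other cells were summed in each library. The summed level of 9 B and plasma cell markers was 33.7 to 76.6 CPM with oridonin and 4.65 to 16.8 CPM with DMSO, with 6 tested, 2 called higher, 1 lower, and MS4A1 at 0 in all libraries. The summed level of 4 other leukocyte markers was 418 to 449.7 CPM with oridonin and 677 to 711 CPM with DMSO, with 1 tested and called lower. The others did not pass the filter on low counts, so this sum is in effect the level of 1 gene. The summed level of 8 stroma and endothelium markers was 42.9 to 44.8 CPM with oridonin and 65.3 to 73.5 CPM with DMSO, with 5 tested, 2 called higher and 2 lower. Their part in the results was not tested.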

How the data were processed

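Per the labels, total RNA of HepG2 cells was sequenced as mRNA libraries, 3 per group. The authors deposited raw counts per gene and log2 FPKM values (fragments per kilobase of gene length, scaled to library size). The submitters' processing notes name hg38 and DESeq2 1.10.1; no source used here names the aligner, the counter or a strand setting. The log2 FPKM table holds the 18404 genes with at least 1 count in every library.

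Counts were tested with edgeR 4.0.16 (R 4.3.3) by its quasi-likelihood test after the default filter, with TMM scaling and Benjamini-Hochberg adjustment over 15116 genes. The genes that passed hold 99.888% to 99.922% of the counts. FPKM values are 2 to the power of the deposited log2 values. Ratios between members were taken from log2 CPM with a prior count of 2 and tested with exact 2-sided permutation. No 2 libraries repeat one another. Coding sequences are from GENCODE 29, upstream sequences from RefSeq.

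Alternatives were DESeq2's size factors and total counts for scaling, no filter, DESeq2 1.42.0, limma 3.58.1 on log2 FPKM, a replicate block and leaving out each library. The members and lists were chosen with earlier results of these data known. The text names all members, the tested relatives, up to 3 called genes of a list with the smallest p and 1 in the other direction, and the 3 genes nearest in profile to AKR1B10, AKR1C1 and AKR1D1.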

Additional observations from a re-analysis of the deposited data

How the results depend on the processing

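AKR1B10, AKR1C1, AKR1C2, AKR1B1 and AKR1A1 kept their direction and call under every alternative run: log2 1.43 to 1.56 for AKR1B10, 1.05 to 1.20 for AKR1C1, 0.64 to 0.80 for AKR1C2, 0.20 to 0.29 for AKR1B1 and -0.41 to -0.31 for AKR1A1. AKR1C3 lost its call without the filter (log2 1.10), in DESeq2 (1.08) and on leaving out oridonin replicate 1, oridonin replicate 2, DMSO replicate 2 or DMSO replicate 3, with 0.90 to 1.30 over the libraries left out in turn; its few counts limit it. AKR7A2, never called, changed sign with total counts (0.062) and on leaving out libraries (-0.042 to 0.014), as did AKR7A3 (-0.27 to 0.013; 0.013 without oridonin replicate 1) and KCNAB3 (-0.15 to 0.33; -0.08 without oridonin replicate 3 and -0.15 without DMSO replicate 1). Calls over all genes were 6332, with 49.2% higher, and 6846, with 65.5% higher, when libraries were scaled by total counts only, which moved the median log2 change by 0.08. Among the list genes, DHRS3, CYP27A1 and CBR4 lost their call in 8, 6 and 5 of 12 alternatives. Libraries with the same replicate number correlated weakly in their deviations (0.194, 0.0651 and 0.173), and each library correlated best with its own number, a hint from the data and not from the design, since the labels do not say what a number marks. With a replicate block 7689 genes were called, with 5 members higher and 1 lower. The oridonin minus DMSO difference in the 6 log2 ratios between members kept its sign in every alternative run. For AKR1C3 to AKR1C1 that says little, since the difference was only -0.005 without DMSO replicate 1.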
